A study of Mus musculus with 24 samples.

Results

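Intestinal organoids grown from the E19 mouse fetus and kept in culture for 30 days were compared with adult mouse intestine, to see which features of the adult epithelium such cultures carry and which they lack. The arrays were selected by their labels. They are the 4 arrays of fetal organoids at day 30 of culture and the 4 arrays of adult intestinal tissue, 8 of the 24 arrays of the series, and the comparison runs over 30705 genes. The other 4 groups are fetal organoids at day 3, adult-derived organoids at days 3 and 30, and intestine of newborns at P0, with 4 arrays each. They serve to place values and also enter the model, which was fitted to all 24 arrays. Standard errors, intervals and p-values thus draw on the spread within all 6 groups. All organoids were fed ENR medium, named for EGF, Noggin and R-spondin. The tissue is labelled intestine, and markers of muscle, connective tissue, vessels and immune cells, given below, were measured in it besides those of the epithelium. The labels give no strain, sex, adult age, stretch of the gut or layers taken, and leave unsaid if replicates came from different animals or cultures. The spread that the p-values measure is thus one between arrays of a group, and may be technical.

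The lining of the small intestine renews itself from stem cells at the base of the crypts, which are kept by Wnt signals and R-spondin. Their daughters divide for a short time and become absorptive enterocytes or secretory cells, namely Paneth, goblet, enteroendocrine and tuft cells. Enterocytes mature as they climb the villus, where they load the brush border with enzymes and transporters and reach their last state at the tip. In mice the enterocyte of the suckling pup, which takes up milk proteins whole and digests lactose, gives way at weaning to an adult cell that splits sucrose and has a full set of detoxifying enzymes, while Paneth cells appear over the same weeks. An organoid holds the epithelium alone, with no gut contents, microbes, blood or nerves.

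Levels are given as deposited, as log2 signal, and each is named by its group and replicate number, organoid standing for fetal day 30 organoid and tissue for adult tissue unless a further name is given. A difference is the organoid mean minus the tissue mean on the log2 scale with its standard error, and a gene is called where limma's adjusted p is under 0.05. A gene counts as within 2-fold where the whole 95% interval of its difference lies between -1 and 1. Negative control probe sets had medians of 4.15 to 4.38 on organoid arrays and of 4.18 to 4.61 on tissue arrays, and a mean below that of its arrays is treated as background. The array medians lay between 4.23 and 4.35 in organoids and between 4.34 and 4.45 in tissue, and the correlation between replicates over genes between 0.988 and 0.992 in organoids and between 0.984 and 0.996 in tissue. Precision is limited throughout by the number of arrays.

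Some arrays stand apart within their group. Fabp6, the bile acid binding protein of ileal enterocytes, had levels of 4.84, 8.98, 4.66 and 9.54 on organoid arrays 1 to 4, against 9.62, 4.56, 4.8 and 4.55 on tissue arrays 1 to 4. Slc10a2, the ileal bile acid transporter, had 3.26, 5.08, 3.83 and 6.8 on organoid arrays and 7.18, 3.42, 3.4 and 3.34 on tissue arrays. Both ileal genes were thus high on organoid arrays 2 and 4 and on tissue array 1, and low on the others. Gata4, a transcription factor of the upper small intestine, had 7.9, 7.56, 7.58 and 7.56 on organoid arrays, against 7.18, 7.67, 7.72 and 7.7 on tissue arrays, the lowest of the 8 being tissue array 1. Several results that rest on these arrays are given with and without them. Xist, the RNA of the inactive X chromosome, lay between 10.76 and 11.29 on organoid arrays and between 3.77 and 4.24 on tissue arrays. Sex, as far as Xist reflects it, and culture thus cannot be told apart in this comparison, for genes of the sex chromosomes or for any others. The Y-linked genes Kdm5d and Uty averaged 4.96 ± 0.24 and 5.05 ± 0.21 in organoids, against 6.24 ± 0.53 and 6.1 ± 0.47 in tissue (SD, n = 4). Kdm5d was called (-1.28), but not without tissue replicate 1 (-1.06), and Uty was not called.

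**Figure D1:**
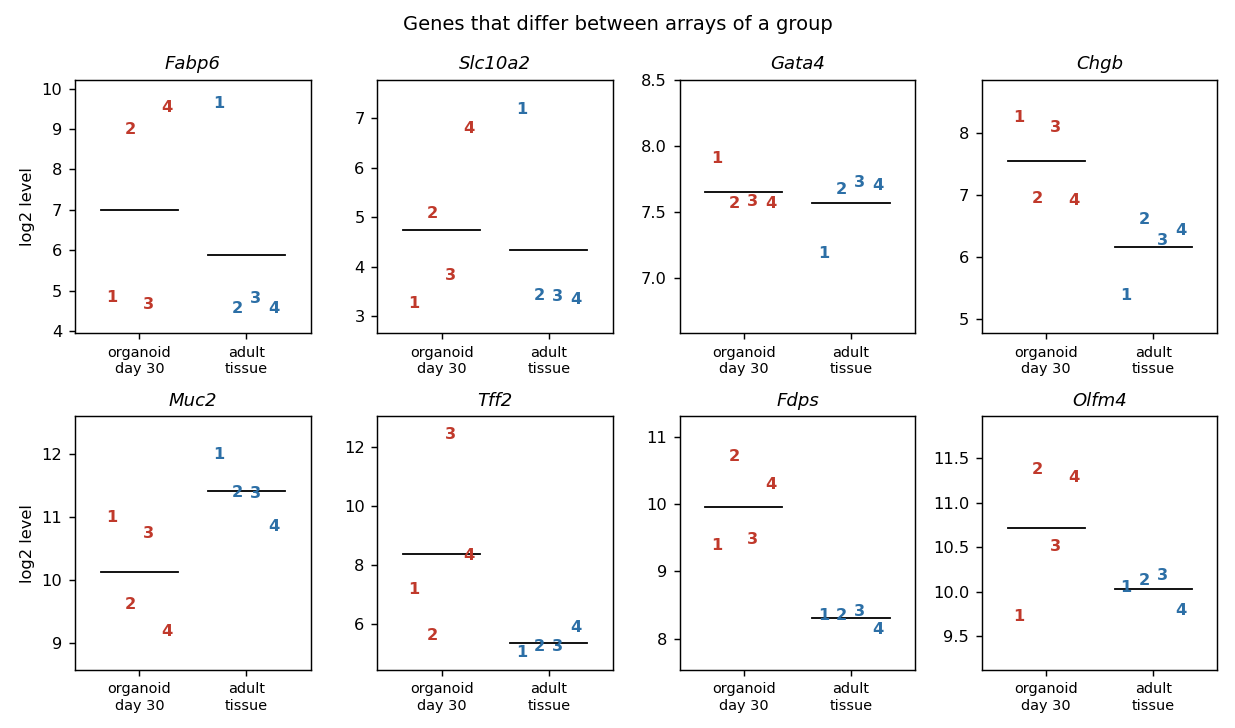
Log2 level of 8 genes on each array, drawn as its replicate number, in fetal day 30 organoids (left of each panel) and adult tissue (right), with a line at the group mean and a scale of its own per gene. Fabp6 and Slc10a2 are high on organoid arrays 2 and 4 and on tissue array 1, and Chgb and Muc2 are higher on organoid arrays 1 and 3 than on organoid arrays 2 and 4.

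Of the 30705 genes, 10317 were called (33.6%), 5842 higher (19%) and 4475 lower (14.6%) in organoids. With at least a 2-fold change, 804 were higher and 1237 lower. The median difference over all genes was 0.005. With each array centred on its median, 67.5% of the called genes were higher, against 56.6% with the deposited values, and with arrays scaled to a list of epithelial structure genes, which moved the median difference of all genes by 0.179, 77.2% were. That shift rested on 1 gene of the list, Krt20, and without it the shift was -0.004 and 57.5% were higher. With Krt20 left out, the counts given below as changing under this scaling stayed within 1.5 times those on the deposited scale, other than that of lower Hox genes, which was 1, and the calls said to end under it held. Of the 19630 genes above background in at least 1 group, 15638 lay within 2-fold, which is 50.9% of the genes tested and 79.7% of those above background. Among those above background 47.9% were called, 28.2% higher and 19.7% lower. Counts of list members below are to be read beside these shares.

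**Figure D2:**
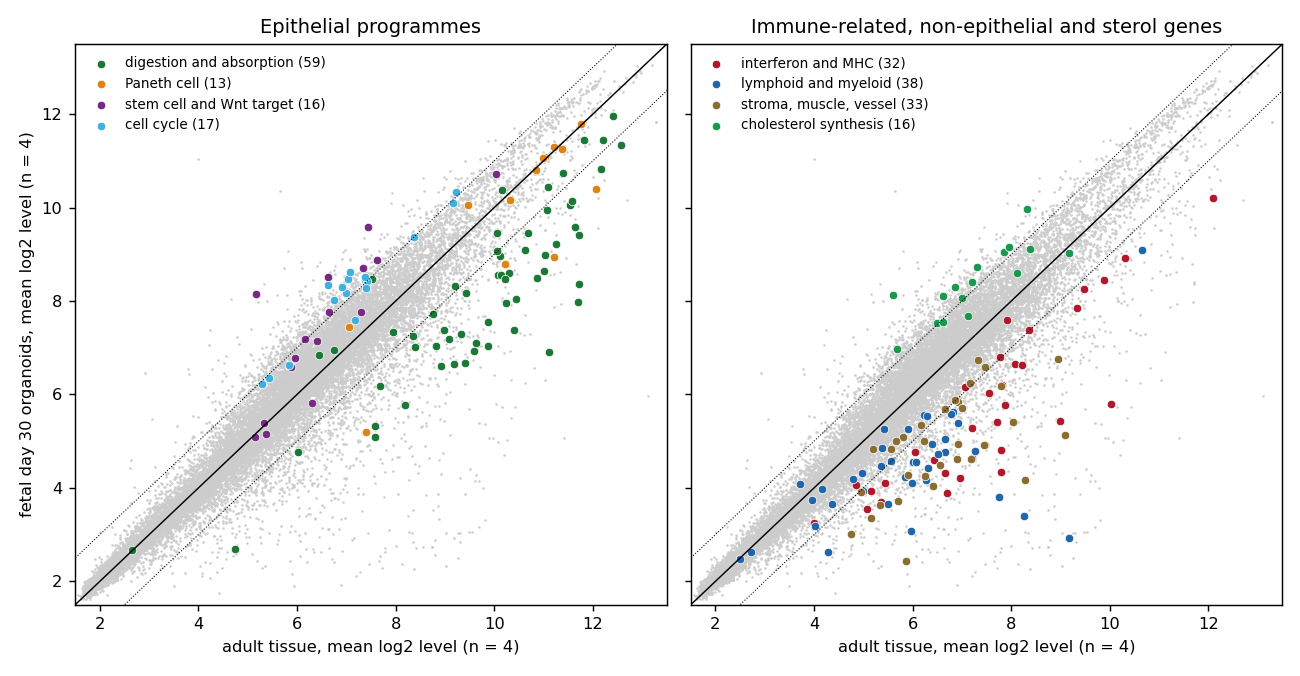
Mean log2 level of each of 30705 genes (grey) in fetal day 30 organoids (vertical axis) and adult tissue (horizontal axis), n = 4 arrays each, with the line of equal levels, dotted lines at 2-fold, and gene lists in colour with the number of members measured. Most genes of digestion and absorption, and all of the interferon and MHC genes, lie below the line of equal levels, while cell cycle and most cholesterol synthesis genes lie above it.

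Genes of epithelial structure differed in both directions. Of 18 measured, 5 were higher and 7 lower, 12 lay within 2-fold, and the median difference was 0.03, while 9 were higher with arrays scaled to this same list. Krt8, a keratin of simple epithelium, averaged 11.83 ± 0.17 in organoids and 11.85 ± 0.15 in tissue, and the adhesion gene Cdh1 11.19 ± 0.06 in organoids and 10.98 ± 0.17 in tissue (SD, n = 4), both within 2-fold and not called. Epcam, a surface protein of epithelium, was lower by a small amount, with a difference of -0.44 ± 0.08 (adjusted p = 6.4e-05). Krt18, a partner of Krt8, was higher by at least 2-fold (1.56 ± 0.17, adjusted p = 1e-07). The 3 genes lower by at least 2-fold were Krt20, the keratin of tip cells given below, with the largest fall of the list (-3.29 ± 0.34, adjusted p = 4.9e-08), Vil1, which encodes villin of the microvillus core (-1.51 ± 0.11, adjusted p = 3e-10), and Cldn15, a pore-forming claudin (-1.03 ± 0.15, adjusted p = 9.7e-06). Since these are bulk samples, fewer cells of a type and less RNA per cell cannot be told apart for any gene below.

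The gene of sucrose digestion was not told apart from its adult level. Sis, which encodes sucrase-isomaltase, had levels of 11.43, 11.53, 11.24 and 11.62 on organoid arrays 1 to 4, against 11.89, 11.91, 12.05 and 11.39 on tissue arrays 1 to 4. The groups overlapped and the difference was not called (-0.36 ± 0.33, adjusted p = 0.49), though its interval, -1.05 to 0.34, reaches just past 2-fold lower. In fetal organoids at day 3 Sis averaged 6.69, and in P0 tissue 5. The glucoamylase gene Mgam had 11.43, 11.49, 11.19 and 11.64 on organoid arrays, against 12.42, 12.29, 12.4 and 11.75 on tissue arrays, and was lower by 0.78 ± 0.21 (adjusted p = 0.0049), a call that ended with organoid arrays 1 and 3 left out (-0.65).

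The genes of lactase and trehalase stayed far below the adult level. Lct, which encodes lactase, had 8.4, 9.22, 8.26 and 7.55 on organoid arrays, against 11.09, 11.96, 11.86 and 11.92 on tissue arrays. Treh, the brush border trehalase, had 6.92, 7.93, 6.55 and 6.77 on organoid arrays, against 8.86, 10.3, 10.06 and 10.27 on tissue arrays. Every organoid array was below every tissue array for both genes, by 10.2-fold for Lct (-3.35 ± 0.39, adjusted p = 3e-07) and 7.1-fold for Treh (-2.83 ± 0.3, adjusted p = 8.9e-08). Treh averaged 4.63 in fetal day 3 organoids and 4.55 in P0 tissue, and Lct averaged 8.11 in fetal day 3 organoids and 11.72 in P0 tissue.

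Sugar uptake genes were lower as well. Of 9 genes of sugar transport, glucose synthesis and fructose use, 6 were lower and none higher, with a median difference of -1.1. Slc5a1, the sodium and glucose cotransporter of the brush border, had 10.04, 10.25, 9.94 and 9.96 on organoid arrays, against 11.61, 11.7, 11.79 and 11.02 on tissue arrays (-1.48 ± 0.27, adjusted p = 0.0001), with no overlap. Slc2a2, the basolateral glucose carrier, was 6.35-fold lower (-2.67 ± 0.36, adjusted p = 2.6e-06) and its relative Slc2a7 5.4-fold lower (-2.43 ± 0.24, adjusted p = 2.3e-08), while the fructose carrier Slc2a5 was 2.14-fold lower with overlapping arrays (-1.1 ± 0.26, adjusted p = 0.0017). Genes of the enzymes that trap and split fructose differed little. Khk, ketohexokinase, lay within 2-fold though called (-0.6 ± 0.17, adjusted p = 0.0066), a call that ended with arrays scaled to the epithelial list (-0.42), and Tkfc, triokinase, lay within 2-fold and was not called (0.23 ± 0.13, adjusted p = 0.22).

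**Figure D3:**
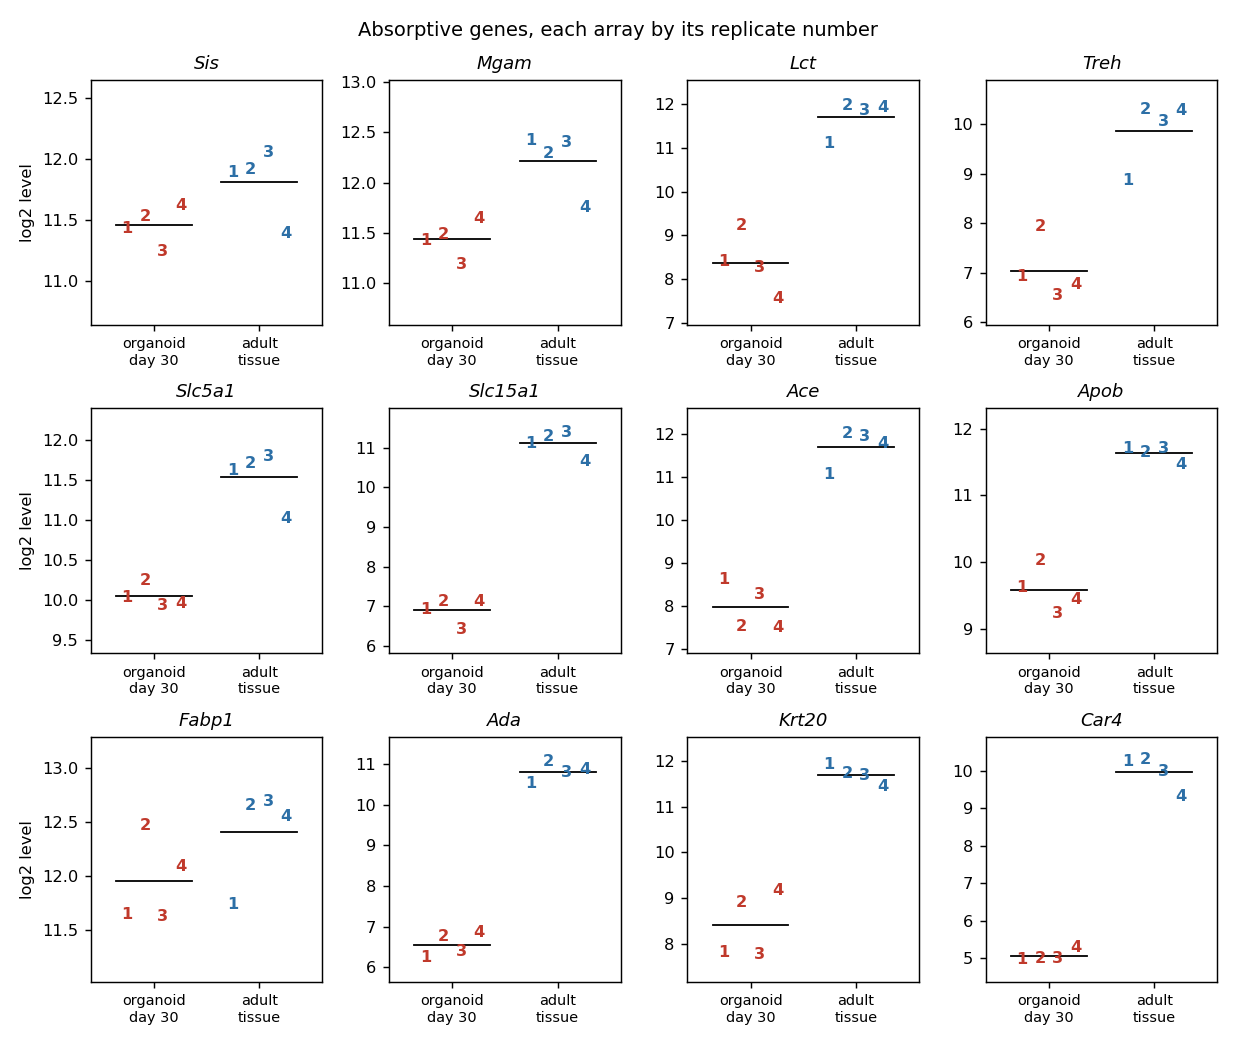
Log2 level of 12 absorptive genes on each array, drawn as its replicate number, in fetal day 30 organoids (left of each panel) and adult tissue (right), with a line at the group mean and a scale of its own per gene. Sis and Fabp1 overlap between the groups, while for the other 10 genes every organoid array lies below every tissue array.

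Most peptidase genes of the brush border were low. Of 12 peptidase genes measured, 11 were lower, each by at least 2-fold, and none was higher, with a median difference of -2.34. Ace, which cleaves dipeptides from peptide ends, had 8.62, 7.52, 8.26 and 7.49 on organoid arrays, against 11.06, 12, 11.93 and 11.78 on tissue arrays (-3.72 ± 0.36, adjusted p = 2.7e-08). Dpep1, a dipeptidase, had 6.15, 8.5, 6.5 and 8.36 on organoid arrays, against 10.43, 10.43, 10.39 and 10.34 on tissue arrays (-3.02 ± 0.41, adjusted p = 2.7e-06). Organoid arrays 2 and 4 stood about 2 units above organoid arrays 1 and 3, and without arrays 1 and 3 the difference was -1.97. Dpp4, which removes dipeptides behind proline, was 5.74-fold lower and Mme, neprilysin, 5.3-fold lower. Anpep, aminopeptidase N, was at 11.34 ± 0.25 in organoids and 12.58 ± 0.13 in tissue (SD, n = 4), 2.37-fold lower (adjusted p = 9e-06).

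Genes of the carriers that take up the products of protein digestion were low too. Of 13 genes of amino acid and peptide transport, 12 were lower, 11 of them by at least 2-fold, and 1 was higher, with a median of -1.9. Slc15a1, the peptide transporter PEPT1, had 6.92, 7.13, 6.42 and 7.13 on organoid arrays, against 11.11, 11.29, 11.39 and 10.66 on tissue arrays, 18.5-fold lower (-4.21 ± 0.29, adjusted p = 1.2e-10). Slc43a2, a carrier of large neutral amino acids, was 6.6-fold lower, Slc36a1, a proton-coupled carrier, 5.79-fold lower and Slc6a19, the main neutral amino acid carrier of the brush border, 4.99-fold lower, each with no overlap between the groups. The exception was Slc1a5, a glutamine carrier of dividing cells, at 8.24, 8.69, 8.57 and 8.39 on organoid arrays, against 7.78, 7.7, 7.46 and 7.15 on tissue arrays (0.95 ± 0.13, adjusted p = 4.9e-06). Over the 5 lists of digestion and absorption, 50 of 59 genes were lower, 1 was higher and 7 lay within 2-fold.

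Genes of fat absorption were lower in 18 of 21 cases, 15 of them by at least 2-fold, and none was higher, with a median of -1.43. Cd36, a fatty acid receptor, had 5.33, 5.61, 5.16 and 4.25 on organoid arrays, against 6.31, 8.32, 7.86 and 7.85 on tissue arrays (-2.49 ± 0.38, adjusted p = 1.4e-05). Npc1l1, which takes up cholesterol, was 4.92-fold lower, the fatty acid carrier Slc27a4 4.87-fold lower, and the sterol exporter Abca1 4.77-fold lower. Apob, the core protein of the chylomicron, had 9.62, 10.03, 9.23 and 9.43 on organoid arrays, against 11.71, 11.65, 11.7 and 11.47 on tissue arrays (-2.05 ± 0.18, adjusted p = 4.7e-09). Among the 4 genes within 2-fold were Mttp, which loads lipid onto Apob and was lower (-0.65 ± 0.13, adjusted p = 0.00044), and the fatty acid binding protein Fabp1. Fabp1 had 11.64, 12.47, 11.62 and 12.09 on organoid arrays, against 11.74, 12.65, 12.69 and 12.55 on tissue arrays, and was not called (-0.45 ± 0.19, adjusted p = 0.074), but it was called at -0.68 without tissue replicate 1 and at -0.62 without organoid replicate 2.

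Genes of cholesterol synthesis ran the other way. Of 16 genes measured, 15 were higher in organoids, 11 of them by at least 2-fold, and none was lower, with a median of 1.19. Lss, which closes the sterol rings, had 7.69, 8.86, 7.96 and 7.99 on organoid arrays, against 5.67, 5.78, 5.6 and 5.36 on tissue arrays, 5.76-fold higher (2.52 ± 0.27, adjusted p = 1.2e-07). Fdps, which makes farnesyl diphosphate, had 9.38, 10.7, 9.48 and 10.29 on organoid arrays, against 8.35, 8.34, 8.4 and 8.14 on tissue arrays (1.66 ± 0.25, adjusted p = 1.4e-05). Organoid arrays 2 and 4 were the highest for Fdps, and 8 of the 16 genes were higher with those 2 arrays left out. Mvd, of the mevalonate steps, was 2.79-fold higher (adjusted p = 4.8e-05) and Cyp51, a demethylase of lanosterol, 2.72-fold higher (adjusted p = 0.0011), and the call of Cyp51 ended without arrays 2 and 4 (0.73). Sc5d, a late enzyme of the same path, was the member not called (-0.16 ± 0.16, adjusted p = 0.54), and it was called lower without arrays 2 and 4 (-0.49).

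Genes of fatty acid oxidation were mixed. Of 12 genes, 5 were lower and 2 higher, and 10 lay within 2-fold. With arrays scaled to the epithelial list 2 were lower, without any 1 of organoid replicates 1 and 2 and tissue replicate 1 only 1 was higher, and with organoid arrays 1 and 3 left out 3 were lower and none higher. Cpt1a, which admits fatty acids to mitochondria, averaged 9.5 ± 0.12 in organoids and 9.63 ± 0.06 in tissue and was not called. Pdk4, a kinase that turns cells from glucose to fat, was 3.78-fold lower (-1.92 ± 0.4, adjusted p = 0.0005) and the peroxisomal enzyme Ehhadh 2.18-fold lower (-1.13 ± 0.17, adjusted p = 1.5e-05). Ppargc1a, a coactivator of mitochondrial genes that is counted with the transcription factors, was 4.24-fold lower, at 7.14, 7.3, 7.15 and 7.02 on organoid arrays, against 8.94, 9.43, 9.47 and 9.1 on tissue arrays (-2.08 ± 0.18, adjusted p = 2.6e-09). Pck1, of glucose synthesis and counted with the sugar list, was also lower (-1.49 ± 0.23, adjusted p = 1.6e-05), while Fbp1 of the same path was within 2-fold.

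Bile acid genes differed in both directions. Of 9 measured, 2 were higher, 3 lower and 4 not called, and the median of 0.28 was -0.79 with organoid arrays 2 and 4 left out. Without tissue replicate 1 the median was 0.62, with 3 genes higher and 3 lower. Both subunits of the basolateral exporter were lower, Slc51b with 5.34, 6.97, 5.87 and 7.51 on organoid arrays, against 10.73, 9.67, 9.93 and 9.62 on tissue arrays (-3.56 ± 0.53, adjusted p = 8.4e-06), and Slc51a by 3.49-fold (-1.8 ± 0.22, adjusted p = 8.1e-07). Fgf15, the hormone that ileal cells release on bile acid signalling, had 8.06, 6.98, 7.13 and 7.37 on organoid arrays, against 5.43, 3.79, 3.54 and 4.2 on tissue arrays. All organoid arrays were above all tissue arrays, and since the tissue mean is at background the change is given as at least 6.84-fold higher (adjusted p = 0.00029). Nr1h4, the bile acid receptor FXR, averaged 8.18 ± 0.05 in organoids and 7.89 ± 0.73 in tissue and lay within 2-fold, uncalled, but it was called at 0.64 without tissue replicate 1. For the ileal genes Fabp6 and Slc10a2 the differences were 1.12 ± 1.11 and 0.41 ± 0.69 (adjusted p = 0.52 and 0.73), with the array values given above. With organoid arrays 1 and 3 left out Fabp6 was called higher (3.37). The pump Abcc3 was higher (0.66 ± 0.18, adjusted p = 0.0048), a call that ended with organoid arrays 1 and 3 left out (0.33). Its relative Abcc2 was lower (-0.84 ± 0.28, adjusted p = 0.023), a call that ended without organoid replicate 3 (-0.65), without tissue replicate 2 or 3 (-0.61 and -0.7), with organoid arrays 1 and 3 left out (-0.63), with the 8 arrays alone in the fit (-0.84) and with arrays scaled to the epithelial list (-0.66).

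Detoxifying genes were mixed. Of 23 measured, 9 were lower and 4 higher, 7 lay within 2-fold, and the median was -0.2. Without tissue replicate 1, 11 were lower and 3 higher, with a median of -0.49. The median was -0.47 with organoid arrays 2 and 4 left out and 0.02 with arrays 1 and 3 left out. Cyp2c65, a cytochrome P450 of the gut, had 10.39, 10.37, 9.99 and 10.63 on organoid arrays, against 9.77, 10.68, 10.55 and 10.68 on tissue arrays, and the glucuronyl transferase Ugt2b34 averaged 10.17 ± 0.24 in organoids and 10.15 ± 0.34 in tissue (SD, n = 4). Both overlapped between the groups and lay within 2-fold. The Cyp3a genes, whose products handle many drugs, were lower: Cyp3a25 had 7.29, 8.93, 6.76 and 9.05 on organoid arrays, against 9.23, 10.74, 10.79 and 10.39 on tissue arrays (-2.28 ± 0.46, adjusted p = 0.00034), and without organoid arrays 1 and 3 the difference was -1.29. Cyp3a11 had 8.38, 8.22, 8.07 and 9.22 on organoid arrays, against 8.89, 10.35, 10.13 and 10.15 on tissue arrays (-1.41 ± 0.32, adjusted p = 0.0012). Its groups overlapped, and Cyp3a11 averaged 4.13 in fetal day 3 organoids and 3.93 in P0 tissue. Higher in organoids were the glutathione transferases Gsta4 (1.91 ± 0.32, adjusted p = 4e-05) and Gstm1 (1.2 ± 0.25, adjusted p = 0.00058), with the carboxylesterase Ces2a at 11.8 ± 0.37 in organoids and 11.09 ± 0.36 in tissue (SD, n = 4). The call of Ces2a (0.7 ± 0.26, adjusted p = 0.04) ended without any 1 of organoid replicates 1, 2 and 4 or tissue replicates 1 and 3 (0.57 to 0.7).

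Genes of the last stage of the enterocyte were low. Of 8 genes of the villus tip, 7 were lower, all by at least 2-fold, and none was higher, with a median of -1.9. Ada, adenosine deaminase, had 6.25, 6.76, 6.39 and 6.85 on organoid arrays, against 10.53, 11.07, 10.78 and 10.87 on tissue arrays, 19-fold lower (-4.25 ± 0.28, adjusted p = 7.1e-11). Nt5e, the ecto-enzyme CD73 that makes adenosine, had 4.87, 4.75, 5.11 and 4.69 on organoid arrays, against 8.53, 8.15, 8.07 and 8.32 on tissue arrays, 10.6-fold lower (-3.41 ± 0.22, adjusted p = 4.7e-11). Krt20, the keratin of shed and tip cells, had 7.8, 8.91, 7.77 and 9.16 on organoid arrays, against 11.93, 11.72, 11.69 and 11.45 on tissue arrays, 9.78-fold lower (-3.29 ± 0.34, adjusted p = 4.9e-08). In none of the 3 did the groups overlap. The nucleoside carrier Slc28a2 (-2.1 ± 0.29, adjusted p = 3.2e-06), the transcription factor Klf4 (-1.66 ± 0.24, adjusted p = 8.7e-06) and the apolipoprotein Apoa4 (-1.7 ± 0.27, adjusted p = 2.4e-05) were lower by less. Egfr was the exception, within 2-fold and uncalled (0.14 ± 0.13, adjusted p = 0.5).

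Ion transport genes moved both ways. Of 18 measured, 9 were lower and 2 higher, and 4 were higher without tissue replicate 1 and 5 with arrays scaled to the epithelial list. Car4, the carbonic anhydrase on the brush border, had 4.98, 4.99, 4.99 and 5.29 on organoid arrays, against 10.26, 10.31, 9.97 and 9.32 on tissue arrays, 30.0-fold lower (-4.9 ± 0.17, adjusted p = 5.5e-16). Slc9a3, the sodium and proton exchanger NHE3 of absorbing cells, had 6.73, 8.15, 6.61 and 7.62 on organoid arrays, against 11.14, 10.46, 10.3 and 10.55 on tissue arrays, 10.1-fold lower (-3.34 ± 0.37, adjusted p = 1.7e-07). Clca4a (-2.71 ± 0.28, adjusted p = 5.3e-08) and the anion exchanger Slc26a6 (-2.16 ± 0.23, adjusted p = 1.1e-07) fell too. Both genes higher on the deposited scale serve fluid secretion, Slc12a2, the chloride-loading cotransporter of crypt cells, at 9.81, 10.15, 10.16 and 10.25 on organoid arrays, against 8.05, 8.08, 8.17 and 7.34 on tissue arrays (2.18 ± 0.15, adjusted p = 1e-10), and the potassium channel Kcnn4 (1.03 ± 0.25, adjusted p = 0.0022). Cftr, the chloride channel through which such fluid leaves, lay within 2-fold and was not called (0.47 ± 0.2, adjusted p = 0.085), as did Gucy2c, the guanylin receptor (-0.02 ± 0.12, adjusted p = 0.94).

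Of 11 genes of vitamin D, calcium and iron handling, 3 were lower, 1 was higher and 5 lay within 2-fold, and 2 were higher without organoid replicate 1 and 3 with arrays scaled to the epithelial list. The higher gene was S100g, calbindin-D9k, which carries calcium through the enterocyte, with 7.11, 7.02, 6.38 and 6.82 on organoid arrays, against 3.66, 5.22, 4.14 and 5.21 on tissue arrays (2.27 ± 0.32, adjusted p = 4.4e-06). Vdr, the vitamin D receptor, was lower by 0.91 ± 0.19 (adjusted p = 0.00042), at 9.09 ± 0.26 in organoids and 10 ± 0.16 in tissue, though both lay far above fetal day 3 organoids at 6.93. Heph, which oxidises iron on its way out of the enterocyte, was 2.43-fold lower (-1.28 ± 0.17, adjusted p = 1.7e-06).

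Of 11 suckling enterocyte genes, 4 were lower than in adult tissue and none was higher. Fcgrt, the receptor that takes up milk antibodies, had 6.6, 7.69, 6.31 and 6.29 on organoid arrays, against 8.34, 8.42, 8.43 and 8.45 on tissue arrays (-1.69 ± 0.26, adjusted p = 1.5e-05), and averaged 8.53 in fetal day 3 organoids and 11.66 in P0 tissue. Cubn, the large receptor for protein and vitamin B12 uptake, was 16.1-fold lower, at 5.61, 6.75, 6.17 and 6.75 on organoid arrays, against 10.07, 10.55, 10.4 and 10.29 on tissue arrays (-4.01 ± 0.28, adjusted p = 1.7e-10), while its partner Amn fell by 0.82 ± 0.14 (adjusted p = 4.3e-05). Maf, a transcription factor of the suckling enterocyte in mice, was 7.13-fold lower (-2.83 ± 0.37, adjusted p = 1.7e-06), while Prdm1, the gene of Blimp-1, lay within 2-fold and was not called (-0.37 ± 0.24, adjusted p = 0.28), though it was with organoid arrays 1 and 3 left out (-0.87). Nox4, high in P0 tissue at 5.96, was at background in both groups. Markers of immune cells and connective tissue, given below, were lower as well, and their part in the values of this list was not tested.

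Lysosomal genes differed in both directions. Of 16 measured, all above background, 7 were lower and 4 higher, against 47.9% called in either direction among genes above background, and 12 lay within 2-fold, with a median of -0.06. With arrays scaled to the epithelial list 4 were lower and 8 higher, and with organoid arrays 2 and 4 left out 4 were lower. Hexa, a hexosaminidase subunit, was the lowest (-1.04 ± 0.15, adjusted p = 8e-06). Among 9 arginine and proline genes, 6 lay within 2-fold. Otc, which makes citrulline in the enterocyte, averaged 9.23 ± 0.35 in organoids and 9.22 ± 0.14 in tissue (SD, n = 4). Arg2, the arginase that appears at weaning, had 7.48, 7.96, 6.74 and 8.56 on organoid arrays, against 8.7, 10.16, 10.06 and 10.21 on tissue arrays, 4.27-fold lower (-2.09 ± 0.34, adjusted p = 2.6e-05), with no overlap, and fetal day 3 organoids averaged 4.68.

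Paneth cells guard the stem cells and release antimicrobial peptides. Of 13 of their genes measured, all above background, 8 lay within 2-fold, against 79.7% of genes above background, and 3 were lower and none higher. Defa30, a defensin, had 11.69, 11.69, 11.92 and 11.82 on organoid arrays, against 11.85, 11.69, 12.01 and 11.45 on tissue arrays (0.03 ± 0.36, adjusted p = 0.97). The lectin Itln1 had 10.88, 11.45, 11.3 and 11.52 on organoid arrays, against 11.26, 11.1, 11.65 and 10.87 on tissue arrays (0.07 ± 0.36, adjusted p = 0.93). The groups overlap for both genes, and both lie far above P0 tissue, where Defa30 averaged 7.7 and Itln1 4.69. Defensin genes are near copies of each other and their probe sets can share signal, so their values are not independent.

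The lower genes of this list were Lyz1, Mptx2 and Pla2g2a. Lyz1, the Paneth lysozyme, had 9.6, 10.52, 10.47 and 11 on organoid arrays, against 12.36, 11.89, 12.39 and 11.6 on tissue arrays, 3.17-fold lower (-1.66 ± 0.32, adjusted p = 0.00023). Its probes may also read the myeloid lysozyme, a near copy. Mptx2, a pentraxin, was 4.8-fold lower (-2.26 ± 0.64, adjusted p = 0.0075), a call that ended without organoid arrays 2 and 4 (-2.02). Pla2g2a, a phospholipase that attacks bacteria, had 4.32, 5.48, 5 and 5.99 on organoid arrays, against 8.5, 7.15, 7.65 and 6.3 on tissue arrays (-2.2 ± 0.39, adjusted p = 7.7e-05). Mmp7, which cuts defensins to their active form, averaged 10.05 ± 0.34 in organoids and 9.47 ± 0.55 in tissue and was not called (adjusted p = 0.26).

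Goblet cell genes differed in both directions. Of 17 genes, 6 lay within 2-fold, 4 were lower and 3 higher, with a median of -0.03. Tff3, the trefoil peptide of goblet cells, averaged 12.64 ± 0.23 in organoids and 12.65 ± 0.06 in tissue (SD, n = 4), and Agr2, needed to fold mucin, 10.39 ± 0.3 in organoids and 10.28 ± 0.6 in tissue. Zg16, a lectin of the mucus, was 5.79-fold lower, at 10.92, 9.09, 10.64 and 10.01 on organoid arrays, against 12.71, 12.66, 12.73 and 12.69 on tissue arrays (-2.53 ± 0.35, adjusted p = 4e-06). Muc2, the main gel-forming mucin, had 11, 9.62, 10.74 and 9.18 on organoid arrays, against 12, 11.4, 11.38 and 10.86 on tissue arrays (-1.27 ± 0.38, adjusted p = 0.01), lower on organoid arrays 2 and 4 than on 1 and 3. The call of Muc2 ended without organoid replicate 4 (-0.96) and that of Fcgbp, a mucus protein (-0.85 ± 0.28, adjusted p = 0.022), without organoid replicate 2 or 4 or tissue replicate 1 (-0.55 to -0.74). With organoid arrays 2 and 4 left out, 1 goblet gene was lower in place of 4, and without organoid replicate 4 alone 2 were. The transcription factors Spdef (0.6 ± 0.14, adjusted p = 0.0017) and Creb3l1 (1.13 ± 0.26, adjusted p = 0.0015) were higher in organoids, the call of Spdef ending with organoid arrays 1 and 3 left out (0.36), when 1 goblet gene was higher in place of 3.

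Enteroendocrine genes went both ways. Of 19 measured, all above background, 6 were higher, 1 was lower and 7 lay within 2-fold. Among all genes above background 28.2% were higher and 19.7% lower. Tac1, which encodes substance P, had 7.55, 6.27, 7.25 and 6.43 on organoid arrays, against 5.01, 4.95, 5.15 and 5.11 on tissue arrays (1.82 ± 0.22, adjusted p = 5.1e-07). Gcg, the gene of the incretin GLP-1, had 8.2, 6.37, 8.36 and 6.87 on organoid arrays, against 5.77, 5.43, 5.53 and 5.35 on tissue arrays (1.93 ± 0.45, adjusted p = 0.0015). Chgb, a granule protein, was 2.6-fold higher (1.38 ± 0.29, adjusted p = 0.00059), and Rfx6, a regulator of these cells, at least 2.67-fold higher (adjusted p = 0.0006), its tissue mean being at background. Sct, the gene of secretin, was the lower one (-1.03 ± 0.16, adjusted p = 1.5e-05). Organoid arrays 1 and 3 were the highest for Tac1, Gcg, Chgb and Rfx6 alike. With arrays 2 and 4 left out 15 of 19 were higher, with arrays 1 and 3 left out 3 were higher and 3 lower, the calls of Chgb (0.76) and Gcg (1.1) ending there, and without organoid replicate 4 alone 10 were higher. With each array centred on its median 10 were higher, and with arrays scaled to the epithelial list 12.

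Of 13 tuft cell genes none was called, and 9 lay within 2-fold. Dclk1, a kinase used as their marker, had 7.45, 4.66, 6.75 and 5.22 on organoid arrays, against 5.5, 5.88, 5.59 and 5.65 on tissue arrays (0.36 ± 0.44, adjusted p = 0.61). Here too organoid arrays 1 and 3 lay above all tissue arrays and arrays 2 and 4 below them, and with arrays 2 and 4 left out 2 of the 13 genes were called higher, Dclk1 among them (1.44). Without organoid replicate 4 alone 1 was higher, and without tissue replicate 1 alone 1 was lower.

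Stem cell and Wnt target genes were mostly higher. Of 16 measured, 11 were higher, 7 of them by at least 2-fold, and 1 was lower, with a median of 0.79. Without tissue replicate 1 there were 2 lower genes. Lgr5, the R-spondin receptor that marks crypt base stem cells, had 7.73, 8.63, 8.02 and 8.23 on organoid arrays, against 5.39, 5.15, 5.27 and 4.84 on tissue arrays, 7.96-fold higher (2.99 ± 0.4, adjusted p = 1.9e-06). Smoc2, of the same cells, had 9.49, 9.63, 9.53 and 9.72 on organoid arrays, against 7.39, 7.59, 7.58 and 7.18 on tissue arrays, 4.46-fold higher (2.16 ± 0.29, adjusted p = 2e-06). Sox9, a crypt transcription factor (1.89 ± 0.15, adjusted p = 1.3e-09), and Lrig1, a damper of EGF receptors (1.37 ± 0.12, adjusted p = 6.8e-09), were higher with no overlap. Olfm4 overlapped, at 9.72, 11.37, 10.51 and 11.28 on organoid arrays, against 10.04, 10.12, 10.18 and 9.79 on tissue arrays. Its call (0.69 ± 0.26, adjusted p = 0.046) ended without organoid replicate 2 or 4 or any 1 tissue replicate (0.47 to 0.73). Axin2, a general Wnt target, was within 2-fold and uncalled, but was called without organoid replicate 1 (0.65) or tissue replicate 1 (0.61). Nkd1, a Wnt antagonist, was lower by a small amount (-0.48 ± 0.1, adjusted p = 0.00034), a call that ended with arrays scaled to the epithelial list (-0.3).

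Cell cycle genes were higher in 16 of 17 cases, 10 of them by at least 2-fold, and none was lower, with a median of 1.09. Mcm3, a subunit of the replicative helicase, had 7.74, 8.71, 8.29 and 8.65 on organoid arrays, against 7.09, 6.67, 6.51 and 6.25 on tissue arrays, 3.29-fold higher (1.72 ± 0.24, adjusted p = 3.9e-06). Mcm6, another subunit, was 2.93-fold higher (1.55 ± 0.15, adjusted p = 2.4e-08). Mki67, found in dividing cells, had 10.22, 10.36, 9.93 and 10.79 on organoid arrays, against 9.63, 9.3, 9.4 and 8.58 on tissue arrays (1.1 ± 0.21, adjusted p = 0.00022). For these 3 genes every organoid array lay above every tissue array. The mitotic kinase gene Aurka was the member not called (0.44 ± 0.18, adjusted p = 0.073), and was called without organoid replicate 1 (0.52) or 3 (0.53).

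**Figure D4:**
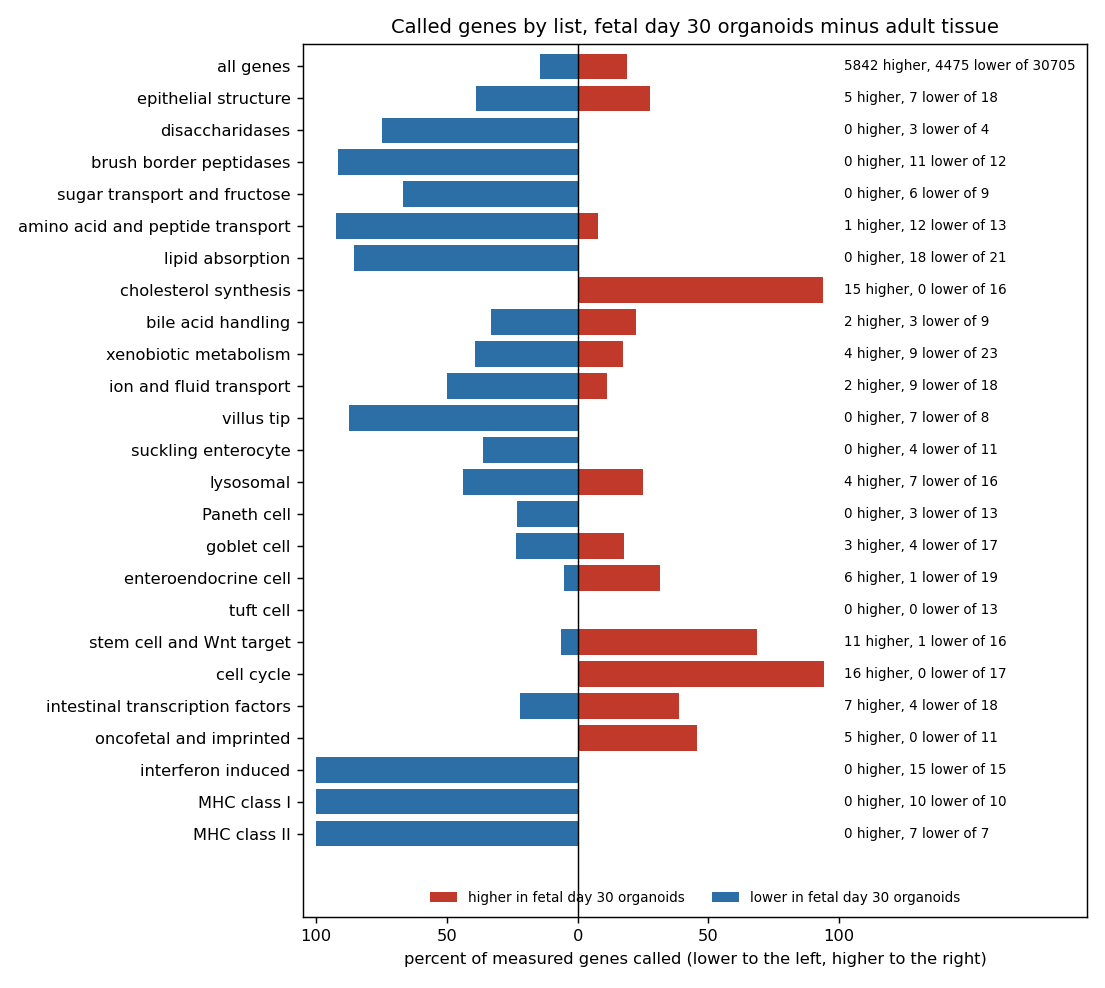
Percent of the measured genes of each list, and of all genes (top), called higher (red, to the right) or lower (blue, to the left) in fetal day 30 organoids than in adult tissue, with the counts at the right. Brush border peptidases, amino acid and peptide transport, fat absorption, villus tip, interferon-induced and MHC genes lie to the left, and cholesterol synthesis, stem cell and cell cycle genes to the right, while 33.6% of all genes were called.

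Transcription factors of the intestine were also compared. Of 18 measured, all above background, 9 lay within 2-fold, against 79.7% of genes above background. Of the same 18, 7 were higher and 4 lower, against 28.2% and 19.7% of genes above background. Hnf4a, a master gene of enterocytes, averaged 10.06 ± 0.14 in organoids and 9.9 ± 0.13 in tissue, and Klf5, a crypt factor, 9.36 ± 0.15 in organoids and 9.22 ± 0.16 in tissue (SD, n = 4), both uncalled. Cdx2, which sets intestinal fate, was slightly higher (0.46 ± 0.09, adjusted p = 0.0003). The lower genes were Ppargc1a and Klf4, both by at least 2-fold (-2.08 and -1.66, given above), Vdr (-0.91) and Hnf4g, a partner of Hnf4a in the mature enterocyte (-0.95 ± 0.18, adjusted p = 0.00016). Foxa1 had 6.99, 7.45, 7.76 and 8.07 on organoid arrays, against 6.68, 6.37, 6.1 and 5.72 on tissue arrays (1.35 ± 0.32, adjusted p = 0.0018), and Foxa2, its close relative, was 2.47-fold higher (1.31 ± 0.16, adjusted p = 7e-07). Of 15 Hox genes, which record position along the body, 12 lay within 2-fold, 2 were lower by under 2-fold, 1 in most of the alternatives, and none was higher, though 3 were higher and 1 lower with arrays centred on their medians or quantile normalized a second time, and 2 higher and none lower with arrays scaled to the epithelial list.

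Some fetal genes were higher than in adult tissue. Of 11 oncofetal and imprinted growth genes, 5 were higher and none lower. Igf2bp3, an RNA-binding protein of the embryo, had 8.1, 7.95, 8.29 and 7.87 on organoid arrays, against 4.57, 4.67, 4.55 and 4.86 on tissue arrays, 10.5-fold higher (3.39 ± 0.19, adjusted p = 4e-12). It averaged 8.22 in fetal day 3 organoids and 7.83 in P0 tissue, and day 30 was not told apart from day 3 (adjusted p = 0.62). Plagl1, an imprinted transcription factor, had 6.47, 5.81, 6.42 and 6.43 on organoid arrays, against 4.85, 4.9, 5.01 and 5.01 on tissue arrays (1.34 ± 0.14, adjusted p = 7.9e-08), against 9.48 in P0 tissue. Peg3, also imprinted, had 6.34, 5.53, 6.95 and 5.55 on organoid arrays, against 4.73, 5.33, 5.08 and 4.94 on tissue arrays (1.07 ± 0.23, adjusted p = 0.00082), with the call lost (0.52) and 3 genes of the list higher when organoid arrays 1 and 3 were left out. The growth factor Igf2 was not higher, at 5.79 ± 0.2 in organoids and 5.76 ± 0.33 in tissue (SD, n = 4).

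Genes of the fetal spheroid and of regenerating epithelium differed in both directions. Of 13 measured, 3 were higher and 3 lower. Without organoid replicate 3 none was higher, and without organoid replicate 4, or with the 8 arrays alone in the fit, 1 was, while 3 were lower in each of these. Clu, which encodes clusterin, had 6.87, 6.18, 10.23 and 8.73 on organoid arrays, against 6.3, 6.2, 6.38 and 6.25 on tissue arrays, and Msln, mesothelin, 5.87, 4.79, 10.29 and 8 on organoid arrays, against 4.32, 4.75, 5.16 and 4.92 on tissue arrays. Il1rn, an interleukin antagonist, had 6.12, 4.82, 7.82 and 7.63 on organoid arrays and 4.59, 4.9, 5.03 and 5.23 on tissue arrays. In all of these organoid arrays 3 and 4 were the highest. The calls of Clu (1.72 ± 0.6), Msln (2.45 ± 0.73) and Il1rn (1.66 ± 0.52) ended without organoid replicate 3 (0.98, 1.43 and 1.25), those of Clu and Il1rn also without organoid replicate 4 (1.48 and 1.31), and that of Clu without any 1 tissue replicate (1.69 to 1.75). The lower genes were Lgals1, Il33 and Gja1. Lgals1, a galectin that connective tissue also makes, had 5.97, 4.97, 6.29 and 4.94 on organoid arrays, against 7.84, 8.42, 8.79 and 7.96 on tissue arrays, 6.54-fold lower (-2.71 ± 0.37, adjusted p = 2.9e-06). Il33, an alarm cytokine, had 3.65, 3.61, 4.12 and 4.3 on organoid arrays, against 5.55, 5.97, 6.13 and 5.3 on tissue arrays, and since the organoid mean is at background it is given as at least 2.81-fold lower (adjusted p = 2.8e-05). The groups did not overlap for either gene, and all 12 mesenchyme markers were lower as well, whose part in these values was not tested. Gja1, a gap junction gene, was called (-0.3 ± 0.07, adjusted p = 0.0021) with both means below the negative controls, a call that ended with arrays scaled to the epithelial list (-0.12).

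Of 12 stomach genes 2 were called, both higher, against 19% of all genes. Tff2, a trefoil peptide of stomach and duodenal glands, had 7.17, 5.59, 12.42 and 8.31 on organoid arrays, against 5.04, 5.24, 5.21 and 5.86 on tissue arrays, and its call (3.04 ± 0.99, adjusted p = 0.019) ended without organoid replicate 3 (1.69). Tff1, of the stomach surface, had 4.88, 5.17, 8.95 and 7.5 on organoid arrays, against 4.88, 4.88, 5.01 and 5.01 on tissue arrays, and was not called (adjusted p = 0.14). For both trefoil genes organoid arrays 3 and 4 were the highest. The other called gene was Atp4a, the proton pump subunit, at 5.77 ± 0.15 in organoids and 5.45 ± 0.23 in tissue. The call of Atp4a (0.31) ended without organoid replicate 1 or tissue replicate 1 or 3 (0.25 to 0.26), and with arrays scaled to the epithelial list less Krt20 (0.31). Of 11 pancreatic acinar genes 1 was higher, Ctrb1, which encodes chymotrypsinogen. It had 10.27, 11.62, 9.82 and 9.72 on organoid arrays, against 5.34, 5.66, 5.54 and 6.06 on tissue arrays, 26.1-fold higher (4.71 ± 0.57, adjusted p = 5.2e-07), and averaged 10.79 in fetal day 3 organoids. The other 10 acinar genes were not called, and 4 of them lay within 2-fold.

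Antimicrobial and defence genes differed in both directions. Of 17 measured, 9 were lower and 2 higher. With the 8 arrays alone in the fit 4 were lower and 1 higher, 6 were lower without tissue replicate 1, 4 with organoid arrays 2 and 4 left out, and 5 with arrays 1 and 3 left out. Without any 1 of organoid replicates 1 and 3 and tissue replicate 1, 1 was higher. Reg3b, a lectin that binds bacteria, had 9.24, 8.61, 9.18 and 8.18 on organoid arrays, against 12.76, 11.56, 11.49 and 10.83 on tissue arrays, 7.26-fold lower (-2.86 ± 0.6, adjusted p = 0.0005). Reg3g, its relative, had 8.11, 6.36, 7.68 and 6.92 on organoid arrays, against 11.65, 9.63, 9.33 and 8 on tissue arrays (-2.39 ± 0.59, adjusted p = 0.0024), a call that ended without organoid arrays 2 and 4 (-1.76). Duox2, which makes hydrogen peroxide at the surface, had 5.41, 6.04, 6.04 and 6.12 on organoid arrays, against 10.54, 6.95, 7.44 and 5.85 on tissue arrays (-1.79 ± 0.56, adjusted p = 0.014). The groups of Duox2 overlapped, with tissue array 4 inside the organoid range. Without tissue replicate 1, the highest, the difference was -0.84. Reg4, by contrast, had 11.73, 9.99, 11.75 and 10.52 on organoid arrays, against 7.52, 10.02, 10.14 and 9.95 on tissue arrays. Its call (1.59 ± 0.5, adjusted p = 0.015) ended without tissue replicate 1 (0.97) or without organoid replicate 1 or 3 (1.35 and 1.34). Pigr, which carries antibody across the epithelium, lay within 2-fold and was not called (-0.54 ± 0.22, adjusted p = 0.056), and averaged 9.19 in fetal day 3 organoids.

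Genes induced by interferon were lower without exception among the 15 measured, 12 of them by at least 2-fold, with a median of -1.53. Interferons are released on contact with viruses, microbes or immune cells and act through STAT and IRF proteins, which bind promoter elements built of GAAA repeats. The promoters of some of these genes are shown to place that element. The sequences are from RefSeq on GRCm38.p6, read 5′ to 3′ on the gene's strand, and capitals mark GAAANNGAAA or its other strand TTTCNNTTTC. The windows are chr19:34640765-34640833 (+) for Ifit1, chr4:156200855-156200916 (-) for Isg15, chr3:142620584-142620633 (+) for Gbp2, chr12:26456543-26456592 (-) for Rsad2 and chr2:122147528-122147577 (+) for B2m.
Ifit1: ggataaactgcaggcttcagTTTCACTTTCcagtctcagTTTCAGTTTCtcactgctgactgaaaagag
Isg15: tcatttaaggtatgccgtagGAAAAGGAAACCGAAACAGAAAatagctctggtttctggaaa
Gbp2: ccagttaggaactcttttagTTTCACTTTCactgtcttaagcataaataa
Rsad2: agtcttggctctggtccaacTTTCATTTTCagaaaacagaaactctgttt
B2m: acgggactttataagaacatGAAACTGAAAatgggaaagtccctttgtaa
In the 250 bases before the gene start, the element was found in 8 of 13 interferon list genes with a promoter in the table (61.5%), in 1 of 9 MHC class I genes (B2m, 11.1%), in 0 of 5 MHC class II genes, and in 936 of 27025 genes in all (3.46%). In Isg15 the 3 matches overlap each other. A match is a description of the letters and not of a bound site.

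The values of these genes were as follows. Ifit1, which blocks viral RNA, had 4, 3.94, 3.27 and 4.32 on organoid arrays, against 6.24, 6.74, 6.9 and 6.89 on tissue arrays, and with the organoid mean at background it was at least 5.42-fold lower (adjusted p = 3.4e-06). Isg15, a ubiquitin-like protein, had 4.03, 4.16, 4 and 4.2 on organoid arrays, against 5.2, 5.44, 5.67 and 5.49 on tissue arrays, at least 2.31-fold lower (adjusted p = 2.3e-08). Gbp2, a GTPase against pathogens in vacuoles, was at least 2.16-fold lower (adjusted p = 3.2e-11), and Rsad2, viperin, at least 1.79-fold lower (adjusted p = 4.4e-06). In none of these 4 did the groups overlap.

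Zbp1, of the same list, a sensor of Z-form nucleic acid, had 4.92, 4.89, 4.79 and 4.63 on organoid arrays, against 8.53, 7.72, 7.46 and 7.51 on tissue arrays, 7.98-fold lower (-3 ± 0.17, adjusted p = 3.5e-12). Oasl2 was 5.89-fold lower (-2.56 ± 0.13, adjusted p = 5e-13) and Usp18, which ends interferon signalling, 4.99-fold lower (-2.32 ± 0.19, adjusted p = 1.4e-09). Ifitm3, which keeps viruses from fusing with the cell, had 6.34, 5.96, 5.46 and 6.37 on organoid arrays, against 7.32, 7.61, 7.7 and 7.57 on tissue arrays (-1.52 ± 0.28, adjusted p = 0.00014). Adult-derived day 30 organoids averaged 8.75 ± 0.69 for Ifitm3 (fetal minus adult-derived -2.72, adjusted p = 7.1e-06).

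MHC class I genes, which present peptides on nearly all cells, were lower in 10 of 10 cases, 8 of them by at least 2-fold. B2m, the light chain of every class I molecule, had 10.09, 10.24, 10.1 and 10.42 on organoid arrays, against 11.99, 12.14, 12.16 and 12.1 on tissue arrays, 3.7-fold lower (-1.89 ± 0.11, adjusted p = 1.1e-11). Psmb8, of the immunoproteasome, was 4.92-fold lower (-2.3 ± 0.14, adjusted p = 1.4e-11). MHC class II genes, which immune cells carry and enterocytes can be induced to carry, were lower in 7 of 7 cases. H2-Ab1, a class II chain, had 5.75, 5.7, 6.04 and 5.68 on organoid arrays, against 10.57, 9.82, 10.01 and 9.72 on tissue arrays, 18.9-fold lower (-4.24 ± 0.21, adjusted p = 2.4e-13), and H2-Eb1 was 11.8-fold lower (-3.56 ± 0.19, adjusted p = 2e-12). Ciita, their regulator, had 4.81, 4.74, 4.73 and 4.81 on organoid arrays, against 6.19, 6.06, 5.91 and 6.01 on tissue arrays (-1.27 ± 0.08, adjusted p = 6.3e-11). The immune cells described next, which carry the same genes, moved with them, and their part in these differences was not tested.

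Markers of cells outside the epithelium were used to check the labels. Over 8 lists of lymphoid, myeloid, connective tissue, muscle, vessel, nerve and red cells, 69 of 83 genes were lower in organoids, 46 of them by at least 2-fold, and none was higher, and for 29 of 83 the organoid mean was at background, against 10 of 83 in tissue. The mean level of the T and intraepithelial lymphocyte list lay between 3.92 and 4 on organoid arrays and between 5.64 and 6.12 on tissue arrays, with 12 of 13 genes lower. That of the macrophage and myeloid list lay between 4.69 and 4.93 on organoid arrays and between 5.69 and 6.09 on tissue arrays, with 12 of 16 lower. For smooth muscle it lay between 5.02 and 5.08 on organoid arrays and between 6.64 and 7.52 on tissue arrays, and for mesenchyme between 4.98 and 5.4 on organoid arrays and between 6.82 and 7.25 on tissue arrays, with 10 of 10 and 12 of 12 genes lower.

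Single genes show the distance. Jchain, the joining chain of secreted IgA, had 3.07, 2.84, 2.9 and 2.86 on organoid arrays, against 8.92, 9, 9.25 and 9.54 on tissue arrays, at least 30.7-fold lower (adjusted p = 2.6e-16). Gzma, granzyme A of cytotoxic lymphocytes, was at least 16.1-fold lower (adjusted p = 1.2e-17) and Dcn, decorin of connective tissue, at least 14.5-fold lower (adjusted p = 2.3e-05). Acta2, smooth muscle actin, had 5.07, 5.06, 5.31 and 5.14 on organoid arrays, against 9.42, 9.05, 9.61 and 8.31 on tissue arrays, 15.5-fold lower (-3.95 ± 0.19, adjusted p = 1.9e-13). Of 203 immunoglobulin variable genes, 186 were lower and none higher, with a median of -2.48. Of the 12 largest falls among called genes whose groups do not overlap, predicted genes with provisional names left out, 11 were of this kind. Of 10 neuron and glia genes 3 were lower, among them Vip, a peptide of enteric neurons, at least 2.11-fold lower (adjusted p = 8.4e-12).

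Further large falls outside the gene lists, with both group means above background, were those of Unc93a2, Enpp7, Enpp3 and Slc7a15. Unc93a2 had 5.18, 5.82, 5.59 and 5.41 on organoid arrays, against 9.85, 10.58, 10.4 and 10.53 on tissue arrays, 28.7-fold lower (-4.84 ± 0.15, adjusted p = 1.4e-16). Enpp7, an alkaline sphingomyelinase of the brush border, had 4.84, 7.42, 5.19 and 5.48 on organoid arrays, against 10.85, 10.2, 10.54 and 10.08 on tissue arrays, 25.7-fold lower (-4.68 ± 0.36, adjusted p = 7.1e-10). Enpp3, an ecto-nucleotide pyrophosphatase, was 26.4-fold lower (-4.72 ± 0.42, adjusted p = 6.1e-09) and Slc7a15, an amino acid carrier by its family, 28.6-fold lower (-4.84 ± 0.34, adjusted p = 2e-10). No organoid array reached any tissue array for these 4 genes.

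Among the largest rises were genes outside the lists. Nrn1, which encodes neuritin, had 9.6, 9.07, 8.89 and 8.71 on organoid arrays, against 5.66, 5.91, 5.82 and 5.87 on tissue arrays, 9.52-fold higher (3.25 ± 0.28, adjusted p = 4.2e-09). Cyp2w1, a cytochrome P450 of the fetal gut, was 7.92-fold higher (2.99 ± 0.35, adjusted p = 4e-07), the thioesterase Acot1 6.84-fold higher (2.77 ± 0.18, adjusted p = 3.5e-11), and Ephx1, an epoxide hydrolase, 5.29-fold higher (2.4 ± 0.28, adjusted p = 2.8e-07). Car8, Krt23 and Mboat1 were higher by 2.74 ± 0.24, 2.6 ± 0.29 and 2.59 ± 0.4 on the log2 scale. Macc1, a driver of growth factor signalling in human colon cancer, had 5.54, 6.8, 6.37 and 7.18 on organoid arrays, against 3.38, 2.68, 3 and 2.63 on tissue arrays, at least 4.19-fold higher (adjusted p = 1.5e-08).

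Adult-derived organoids of the same culture age were compared as well. Against them, 2755 of 30705 genes were called (8.97%), 666 higher and 2089 lower in fetal day 30 organoids. Both comparisons use the same fetal arrays, so they are not independent, and the levels are set side by side. Sis averaged 11.45 in fetal organoids, 11.3 ± 0.22 in adult-derived organoids and 11.81 in tissue. Lct averaged 8.36 in fetal organoids, 7.27 ± 0.77 in adult-derived organoids and 11.71 in tissue. Slc15a1 averaged 6.9 in fetal organoids, 6.71 ± 0.67 in adult-derived organoids and 11.11 in tissue, and Ada 6.56 in fetal organoids, 6.83 ± 0.54 in adult-derived organoids and 10.81 in tissue. Krt20 averaged 8.41 in fetal organoids, 8.52 ± 0.61 in adult-derived organoids and 11.7 in tissue. H2-Ab1 averaged 5.79 in fetal organoids, 5.94 ± 0.09 in adult-derived organoids and 10.03 in tissue. For these 6 genes fetal and adult-derived organoids were not told apart (adjusted p from 0.089 to 0.94). That does not show equal levels, and of the 6 genes Lct had the widest gap between the means of both kinds. The intervals of the difference were -0.42 to 0.79 for Slc15a1 and -0.57 to 0.28 for H2-Ab1.

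Some named genes did differ between both kinds of organoid. Igf2bp3 was higher in fetal than in adult-derived organoids, which averaged 6.19 ± 0.53 (1.86, adjusted p = 6.9e-06), and Plagl1 likewise, at 5.25 ± 0.21 in adult-derived organoids (1.04, adjusted p = 8.9e-05). Cubn, at 4.16 ± 0.75 in adult-derived organoids, was higher in fetal ones (2.16, adjusted p = 6.1e-05), and so was Slc28a2, at 6.54 ± 0.57 (1.63, adjusted p = 0.0009). Pla2g2a was lower in fetal organoids, with 7.12 ± 0.51 in adult-derived ones, near the tissue mean of 7.4 (-1.92, adjusted p = 0.0026). Fbp1, at 8.42 ± 0.14 in adult-derived organoids, was also lower in fetal ones (-1.48, adjusted p = 0.0023), as were B2m (-0.61, adjusted p = 0.0013) and Hexa (-0.85, adjusted p = 0.00095).

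**Figure D5:**
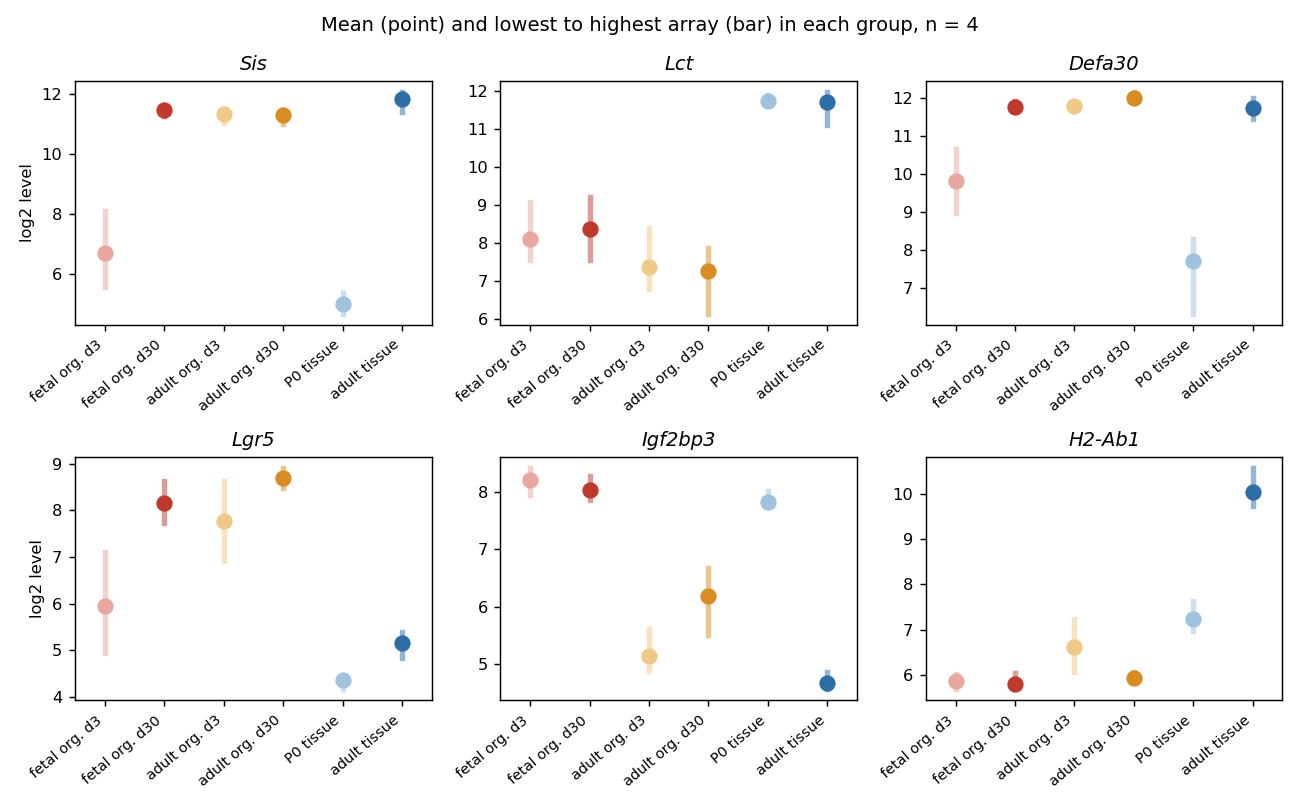
Mean log2 level (point) and lowest to highest array (bar) of 6 genes in fetal organoids at day 3 and day 30, adult-derived organoids at day 3 and day 30, P0 tissue and adult tissue, n = 4 arrays each. Sis and Defa30 in fetal day 30 organoids lie beside adult tissue, Lct and H2-Ab1 lie below it, Lgr5 lies above it, and Igf2bp3 lies beside fetal day 3 organoids and P0 tissue.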

How the data were processed

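RNA from 24 mouse samples was hybridised to 1-colour Affymetrix arrays, and the authors deposited log2 values. Affymetrix Expression Console and RMA produced them, per the submitters' processing notes, whose versions and build the sources used here do not give. RMA brings all arrays to 1 distribution, so a change in total RNA is not seen. Of 72688 probe sets, 6732 were controls, and 31261 named 1 gene in the platform annotation, updated through RefSeq for 1152. The 1489 naming several genes were left out, and for 441 genes with more than 1 cluster a single value was kept, giving 30705 genes.

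A linear model with a mean per group covered the 24 arrays (limma 3.58.1, R 4.3.3), and p-values were Benjamini-Hochberg adjusted over 30705 genes. Every adjusted p in the text is from that limma fit. Where a group mean lay below its arrays' negative controls, the change is given as a bound against them. The model was tested on simulated data. Tables and plots used Python 3.11.15, numpy 2.4.6, pandas 2.3.3 and matplotlib 3.10.9.

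The members and gene lists were chosen with earlier results of these data known. Named genes are a fixed panel, the leading called members of each list, and the largest differences. Added to these are, per list, members within 2-fold with the highest mean level and members called against the majority. Not all uncalled members are named. Fabp6, Slc10a2, Gata4, Tff1, Kdm5d, Uty, Isg15, Gbp2, Rsad2, Ifitm3 and Ciita were named after their values were seen. Equal replicate numbers did not pair the samples, as the correlations of their deviations ran from -0.197 to 0.054. Alternatives covered cluster choice, a filter on dim genes, the prior, the 8 arrays alone, scaling, array weights, the replicate block, a stricter threshold and each array left out, and, chosen after seeing the data, organoid arrays 1 and 3 or 2 and 4 left out, and the scaling to epithelial genes less Krt20.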

Additional observations from a re-analysis of the deposited data

Results flagged for a closer look

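Over the 175 named genes there were 350 groups of 4 arrays. In 32 of these groups the highest or lowest array stood farther from the others than Dixon's 95% critical value allows. Chance would give about 1 in 20 for unrelated groups, but these groups share the same arrays. Fabp6, Slc10a2, Gata4, Kdm5d and Gbp2, all flagged, were also named after their values were seen. The count is thus a description and not a test against chance. Tissue array 1 was the one that stood apart in 23 of the 32 groups, lowest in 15 and highest in 8. It was the lowest tissue array for the absorptive and metabolic genes Lct (11.09), Treh (8.86), Khk (9.63), Fabp1 (11.74), Ehhadh (7.32), Pck1 (6.91), Apoa4 (9.66), Arg2 (8.7) and Enpp3 (10.04), for the detoxifying genes Cyp2c65 (9.77), Cyp3a11 (8.89) and Gstm1 (8.2), and for Gata4 (7.18), Sct (7.6) and Reg4 (7.52). It was the highest for the ileal genes Fabp6 (9.62) and Slc10a2 (7.18), and for Nr1h4 (8.98), Krt8 (12.07), Egfr (7.58), Axin2 (7.75), Igf2 (6.25) and Gbp2 (5.76). Tissue array 4 was lowest for Slc12a2 (7.34) and highest for Acot1 (5.77).

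Among organoid arrays, array 1 was highest for Gata4 (7.9) and Pigr (11.51) and lowest for Duox2 (5.41). Array 2 was highest for Slc26a6 (7.54) and lowest for Plagl1 (5.81), and array 4 was highest for Car4 (5.29) and lowest for Kdm5d (4.61). The cause was not tested for any of these arrays.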

How the results depend on the processing

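With the replicate number as a block, 5729 genes were higher (803 by 2-fold or more) and 4377 lower (1235 by 2-fold or more), while 15590 lay within 2-fold. With arrays scaled to the epithelial structure list, 2539 genes were lower and 1548 higher by at least 2-fold, which follows from the shift that this scaling adds to every gene. With Krt20 left out of that list, 3790 were lower and 792 higher by at least 2-fold. Without any 1 array, 5350 to 5689 genes were higher and 4106 to 4585 lower, 681 to 974 higher and 1204 to 1279 lower by at least 2-fold, and 15261 to 15723 lay within 2-fold. Of the 175 named genes, 146 kept their direction and their side of the threshold under all alternatives listed in the processing summary other than the 3 chosen after seeing the data, none reversed, and 12 of 141 called genes lost the call without 1 array, as given beside them. The cause of those losses was not tested. Of the 10317 called genes, 9400 were above background in at least 1 group. The others, Gja1 among them, had both means below the negative controls, and such calls lie within background signal.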
